A study of Mus musculus with 6 samples.

Results

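Gif, Pga5, Pgc, Chia and Gkn3 are genes of the gastric gland whose transcripts were measured here in whole mouse pancreas. These 5 of the 10245 genes in the deposited table were selected by name with their rise in Ptf1a cKO over control already known, so the comparison between genotypes is given for them as a description, with no test. RNA was sequenced from pancreata of 3 control mice, Ptf1a(CreER/+), aged 4 months, and 3 Ptf1a cKO mice, Ptf1a(CreER/fl), aged 5 months, so age follows genotype and the effects of both cannot be told apart. Mice of both genotypes carried CreER at the Ptf1a locus, which limits recombination to cells that express Ptf1a. According to the authors this allele makes no PTF1A protein, so the controls were functional heterozygotes for Ptf1a and not wild type. All mice received tamoxifen by gavage, 3 doses of 0.25 mg per g, and were killed on day 14. Each group held 2 females and 1 male, the males being control 1 and Ptf1a cKO 2.

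Gastric glands of the mouse contain chief cells at their base, which, like acinar cells of the pancreas, are built for the regulated secretion of digestive zymogens. Pga5 and Pgc encode the aspartic protease zymogens pepsinogen A and pepsinogen C, Chia encodes acidic mammalian chitinase, and Gif encodes gastric intrinsic factor, which binds cobalamin (vitamin B12) and in mice is made by chief cells. Gkn3, a gastrokine, is best known from the mucous neck cells of the same glands, so the set holds 4 chief cell genes and 1 gene of the neighboring cell type. Both chief and acinar cells use the transcription factor BHLHA15 (MIST1) for their secretory architecture, while PTF1A belongs to the acinar cell.

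The targeted gene was reduced in every library of its group. Ptf1a stood at 566, 601 and 652 normalized counts in the control libraries and at 19.8, 70.1 and 10.2 in Ptf1a cKO 1, 2 and 3, so that Ptf1a cKO 2 retained the most. As a check of the tissue, 31 digestive enzymes and secreted acinar proteins made up 82.8% to 85.5% of all normalized gene counts in control libraries and 42.2% to 66.4% in Ptf1a cKO libraries. The values are read counts that the authors had brought to a common scale, and on that scale totals over genes ranged from 17949889 to 21175836 in controls and from 5527104 to 8981107 in Ptf1a cKO. The paper gives the number of uniquely aligned reads per library. The reads behind a single value could not be recovered, and the spread over 3 mice is the only error available.

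All 5 genes had transcripts in control pancreas and were far more abundant in every Ptf1a cKO library. Pga5, the pepsinogen A gene, had 1472, 2385 and 1392 normalized counts in control 1, 2 and 3 and 285261, 61213 and 212946 in Ptf1a cKO 1, 2 and 3. Its mean went from 1750 ± 552 to 186473 ± 114346 (SD, n = 3 each), a ratio of 107, and the log2 difference was 6.51 (SE 0.51) on the log2(value + pseudocount) scale, with a pseudocount of 3.41 normalized counts. Ptf1a cKO 2 held far less than the other two libraries of its group, yet even this value was 25.7 times the highest control value.

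Pgc, the pepsinogen C gene, was the least abundant of the set. It had 104, 171 and 127 normalized counts in control 1, 2 and 3 and 1820, 4839 and 10722 in Ptf1a cKO 1, 2 and 3, for means of 134 ± 34.0 and 5794 ± 4527 (SD, n = 3 each). The ratio of means was 43.3 and the log2 difference 5.08 (SE 0.52). Here Ptf1a cKO 1 was lowest and Ptf1a cKO 3 highest, so the 2 pepsinogen genes did not follow the same order among the knockout mice.

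Chia, the chitinase gene, had 660, 1069 and 507 normalized counts in control 1, 2 and 3 and 81532, 22996 and 110447 in Ptf1a cKO 1, 2 and 3. The means were 745 ± 290 and 71658 ± 44554 (SD, n = 3 each), a ratio of 96.2 and a log2 difference of 6.37 (SE 0.52). As for Pga5, Ptf1a cKO 2 was the low library.

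Gif, the intrinsic factor gene, had 431, 671 and 404 normalized counts in control 1, 2 and 3 and 44073, 43042 and 17717 in Ptf1a cKO 1, 2 and 3. Its means were 502 ± 147 and 34944 ± 14928 (SD, n = 3 each), a ratio of 69.6 and a log2 difference of 6.03 (SE 0.35). The low library was Ptf1a cKO 3, while the first 2 were nearly equal.

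Gkn3, the gastrokine gene, had 1255, 1939 and 1017 normalized counts in control 1, 2 and 3 and 131561, 60861 and 92051 in Ptf1a cKO 1, 2 and 3. The means were 1404 ± 479 and 94824 ± 35431 (SD, n = 3 each), a ratio of 67.5 and a log2 difference of 6.06 (SE 0.32). Gkn3 varied least among Ptf1a cKO mice, by a factor of 2.16 between the highest and lowest library, against 5.89 for Pgc.

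In each of the 5 genes, the lowest Ptf1a cKO value lay above the highest control value, by a factor between 10.7 (Pgc) and 31.4 (Gkn3). Over the whole table the groups lay apart in this direction for 26.5% of genes, in the opposite direction for 24.3% and in either for 50.8%. Since these genes were chosen for this contrast, their count carries no weight beside that share. In whole pancreas, a greater number of cells with a transcript and more of it per cell cannot be told apart.

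**Figure D1:**
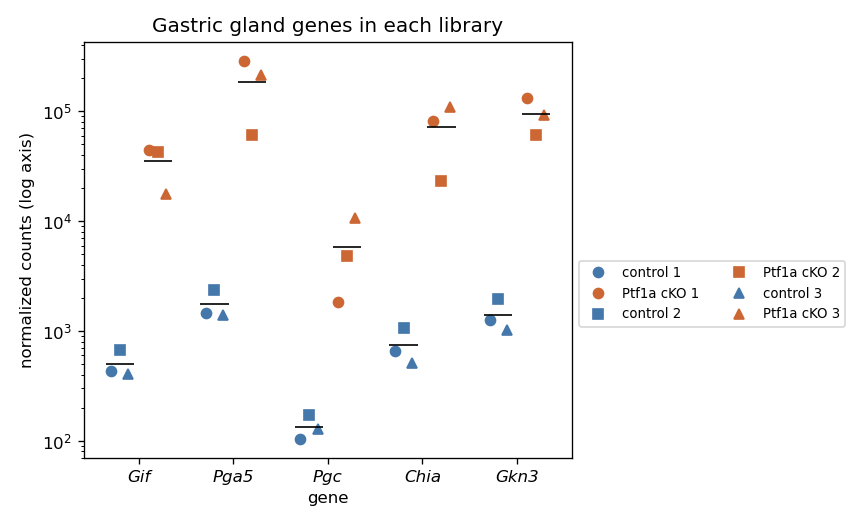
Normalized counts (log axis) of the 5 gastric gland genes in each library, with 1 symbol per library and a horizontal line at the group mean. Every orange Ptf1a cKO point lies above every blue control point of the same gene, and the low Ptf1a cKO library is number 2 for Pga5, Chia and Gkn3, number 3 for Gif and number 1 for Pgc.

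The low library of the knockout group thus depended on the gene. Ptf1a cKO 2, the library with the most residual Ptf1a and the highest share of acinar enzyme transcripts, was lowest for Pga5, Chia and Gkn3, close to the highest for Gif and intermediate for Pgc. This library is also the only male of its group, so sex, residual Ptf1a and the individual mouse cannot be told apart within it. Among controls, the male had the lowest Pgc value and the middle value of each of the other genes.

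The spread within a group differed by genotype. The SD of the log2 values ran from 0.35 (Pgc) to 0.54 (Chia) among controls and from 0.56 (Gkn3) to 1.28 (Pgc) among Ptf1a cKO mice. Over all 10245 genes the median SD was 0.17 in controls and 0.17 in Ptf1a cKO. The 5 genes were therefore more variable than the median gene in both groups.

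The rise made the set a visible part of the normalized gene counts. These counts leave out the entries that name no gene, 75.7% to 82.6% of a library. Summed, the 5 genes took 0.0185%, 0.0296% and 0.0192% of normalized gene counts in control 1, 2 and 3 and 7.61%, 2.15% and 8.03% in Ptf1a cKO 1, 2 and 3. Pga5 alone accounted for 3.99%, 0.682% and 3.85% in the 3 Ptf1a cKO libraries. By normalized counts it ranked number 5 among all genes in Ptf1a cKO 1 and 3 and number 21 in Ptf1a cKO 2, whereas its rank in controls lay between 134 and 258. Pgc moved from ranks between 4061 and 5825 in controls to ranks 159, 60 and 40 in Ptf1a cKO 1, 2 and 3.

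**Figure D2:**
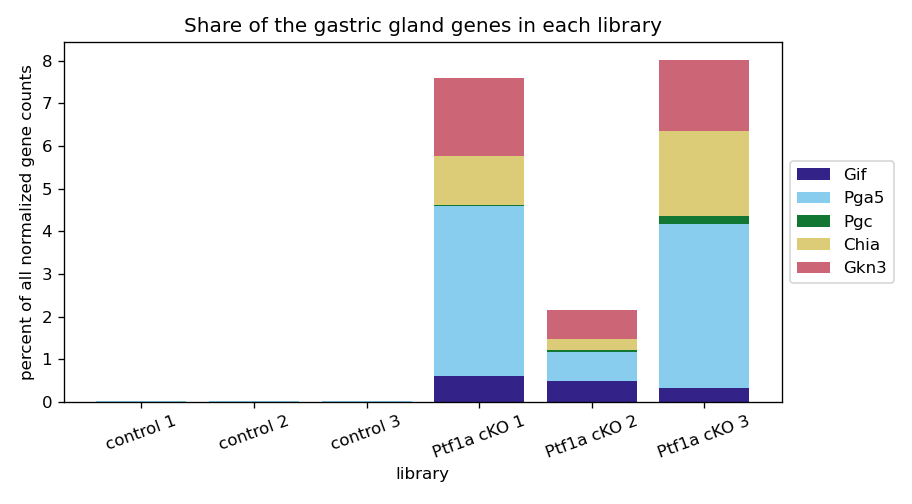
Stacked bars give the percent of all normalized gene counts taken by each of the 5 genes, per library. The stacks reach 7.61%, 2.15% and 8.03% in Ptf1a cKO 1, 2 and 3 and stay at or under 0.0296% in the controls, where they are too low to be seen at this scale.

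To order the levels of different genes, values were divided by exon length (normalized counts per kb). The ranks among all genes, the shares and the ratios between genes use normalized counts and are not corrected for length. In controls the order of mean levels per kb was Gkn3 (1640 ± 559), Pga5 (1084 ± 342), Chia (392 ± 153), Gif (327 ± 95.5) and Pgc (96.3 ± 24.5; SD, n = 3 each), and all 3 control libraries gave this order. The ranges over mice of Gkn3 and Pga5 overlapped, as did those of Chia and Gif, although within each control library Gkn3 stood above Pga5 and Chia above Gif. Pgc lay below the range of Gif.

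In Ptf1a cKO the order of mean levels per kb was Pga5 (115463 ± 70802), Gkn3 (110776 ± 41392), Chia (37655 ± 23413), Gif (22735 ± 9712) and Pgc (4174 ± 3261; SD, n = 3 each). Pga5 stood above Gkn3 in Ptf1a cKO 1 and 3 and below it in Ptf1a cKO 2, and Chia stood above Gif in the same 2 libraries and below it in Ptf1a cKO 2. The ranges overlapped within both pairs, whereas Gkn3 lay above Chia and Gif above Pgc in every library. Every library kept its order when the longest transcript was used for length.

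At these levels the gastric genes met the acinar enzymes. Per kb, Pga5 exceeded 28, 13 and 29 of the 31 listed acinar genes in Ptf1a cKO 1, 2 and 3, against 1 or 2 in control libraries. Gkn3 exceeded 28, 14 and 28 of them, Chia 16, 6 and 21, Gif 10, 8 and 10, and Pgc 2, 3 and 8. Cpa1, the carboxypeptidase A1 gene, had 115221, 199189 and 65932 normalized counts per kb in Ptf1a cKO 1, 2 and 3, where Pga5 had 176632, 37903 and 131855. Pga5 thus outranked Cpa1 in 2 of the 3 knockout pancreata and remained far below it in the mouse with the most residual Ptf1a.

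Ratios between genes of the same library do not depend on a factor applied to a whole library. Whether the authors' values were also adjusted gene by gene is not given in the sources used here, and such a step could alter the ratios. In control mice the genes kept nearly fixed proportions. Across the 10 pairs of genes, the highest control ratio exceeded the lowest by a factor of only 1.04 to 1.60. From control 1 to control 2 all 5 genes were higher by factors between 1.54 (Gkn3) and 1.65 (Pgc), and from control 1 to control 3 the factors lay between 0.767 (Chia) and 1.23 (Pgc). Among Ptf1a cKO mice the same ratios spanned factors of 1.81 to 14.7, and all 10 pairs were wider there than in controls. For all 10 pairs the ranges of the 2 groups overlapped, so no ratio separated the genotypes.

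The ratio of Pga5 to Gif was 3.41, 3.56 and 3.45 in control 1, 2 and 3 but 6.47, 1.42 and 12.02 in Ptf1a cKO 1, 2 and 3. When the counts were summed within each group it was 3.49 in controls and 5.34 in Ptf1a cKO. The control mice were thus alike, and the knockout mice fell on both sides of them.

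The ratio of Pga5 to Pgc, which compares the 2 pepsinogens, was 14.2, 14.0 and 11.0 in the controls and 157, 12.6 and 19.9 in the Ptf1a cKO libraries. Ptf1a cKO 1 stood alone, with Pgc low and Pga5 high, while the other two lay close to the controls. Without Ptf1a cKO 1, the difference between genotypes in the mean log2 ratio went from 1.39 to 0.29.

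Pga5 and Chia kept the closest company among Ptf1a cKO mice, with ratios of 3.50, 2.66 and 1.93 against 2.23, 2.23 and 2.75 in controls. The ratio of Pgc to Gif had the widest range among Ptf1a cKO mice, with 0.0413, 0.112 and 0.605 in Ptf1a cKO 1, 2 and 3 against 0.240, 0.254 and 0.314 in controls. The 5 genes therefore did not rise as a block with fixed stoichiometry, and Pgc and Gif in particular took different orders across the 3 mice.

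**Figure D3:**
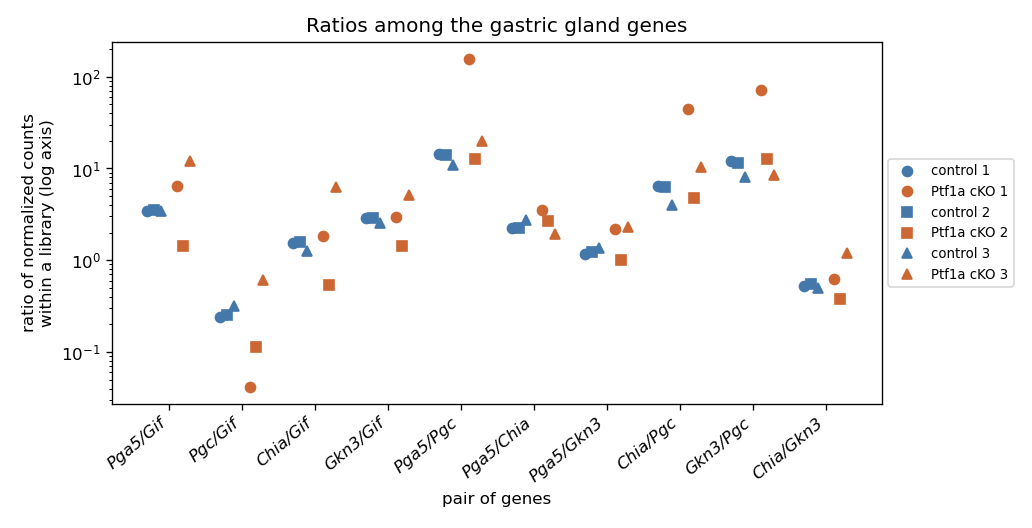
Ratios of normalized counts within a library (log axis) for the 10 pairs of the 5 genes, with 1 symbol per library. Blue control points cluster tightly for every pair, with the highest at most 1.60 times the lowest, while orange Ptf1a cKO points spread by factors of up to 14.7 around them.

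To show the DNA next to these genes, sequence before the start site was taken from RefSeq (GRCm38.p6), which held entries for 4 of the 5 genes. Capitals mark 6-base motifs searched on both strands: TGGGAA, recognized by the RBPJ-type subunit of the PTF1 complex, the E-box versions CACCTG and CAGCTG, bound by bHLH factors such as PTF1A and BHLHA15, the GATA-type motifs TGATAA and AGATAA, and TATAAA, searched on the gene's own strand only. The E-box forms are versions of CANNTG, which 66.0% of windows hold and which is not capitalized otherwise, and TGATAA and AGATAA have their last 5 letters in common. For Chia, where a GENCODE transcript starts further upstream, only the stretch from its first to its last match is printed, 65 to 38 bases before the RefSeq start.
Gif (chr19:11747309-11747558, plus strand): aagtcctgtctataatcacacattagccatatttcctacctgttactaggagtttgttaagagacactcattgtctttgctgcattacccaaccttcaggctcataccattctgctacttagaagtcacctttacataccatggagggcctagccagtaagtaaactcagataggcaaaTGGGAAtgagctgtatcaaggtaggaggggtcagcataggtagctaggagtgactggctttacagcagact
Pgc (chr17:47726592-47726841, plus strand): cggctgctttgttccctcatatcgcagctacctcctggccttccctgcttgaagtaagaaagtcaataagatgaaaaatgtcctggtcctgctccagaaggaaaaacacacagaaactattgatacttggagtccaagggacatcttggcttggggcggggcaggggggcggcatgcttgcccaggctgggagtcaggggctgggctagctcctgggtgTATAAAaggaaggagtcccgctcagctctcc
Chia (chr3:106113317-106113344, plus strand): TGATAAgtaagcactCAGGTGtTATAAA
Gkn3 (chr6:87388936-87389185, minus strand): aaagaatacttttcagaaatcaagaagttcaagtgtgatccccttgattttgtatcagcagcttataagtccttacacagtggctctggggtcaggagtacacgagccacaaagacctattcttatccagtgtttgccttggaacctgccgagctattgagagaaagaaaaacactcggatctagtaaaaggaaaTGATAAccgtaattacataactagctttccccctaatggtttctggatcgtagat
TGGGAA was found 71 bases before the start of Gif, where it overlaps an E-box of the general form, and in none of the others, and 21.5% of 27025 promoter windows of 250 bases hold it. Chia holds the E-box CACCTG on its opposite strand (17.1% of windows), 50 bases before the start, and no window held CAGCTG (12.8%). TGATAA occurs 65 bases before the start of Chia and 55 bases before that of Gkn3 (8.16% of windows), and TATAAA 43 bases before the start of Chia and 31 before that of Pgc (8.12%). AGATAA, in 10.3% of windows, was not found. The full 250 bases were searched in each gene. No motif was shared by all 4 genes, and a match describes letters in these windows and is no evidence of binding.

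The 5 genes lie on 4 chromosomes (GRCm38 coordinates, looked up by symbol because the reads had been aligned to mm9). Gif, from 11747554 to 11763447, and Pga5, from 10668956 to 10678071, are both on chromosome 19. Pgc lies on chromosome 17 from 47726842 to 47734482, Chia (now Chia1) on chromosome 3 from 106113229 to 106132120, and Gkn3 on chromosome 6 from 87383256 to 87388935.

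Other genes of the gastric epithelium were counted in the limma comparison of the genotypes, two-sided with Benjamini-Hochberg adjustment over all 10245 genes and a threshold of 0.05 on the adjusted p. The gastric lists, 6 in number, held 67 genes in all, of which 33 had values and 34 were not analysed here, and the 5 genes above were kept out of them. Of the 33, 13 were higher and 8 lower in Ptf1a cKO past the threshold, where 17.1% of all genes were higher and 16.8% lower, and their median log2 difference was 0.56 against 0.04 over all genes. This median was 0.08 without Ptf1a cKO 3 and 0.84 without Ptf1a cKO 2, and -0.089 with 7 genes higher when a scaled mean of at least 5 was required. The table holds no gene under 27.6 normalized counts in all 6 libraries, and 7 of the 13 higher genes were kept only by their Ptf1a cKO values, so that they could appear in the table only as higher. With every library set to the same total, a scaling that lifts the median gene by 1.49, 29 were higher and 3 lower.

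Of 12 other chief cell genes with values, 2 were higher, 6 lower and 4 not called, with a median log2 difference of -0.65. Over all genes 17.1% were higher and 16.8% lower. Clps, the colipase gene, stands in this list and also in that of the acinar genes. With the same total in every library only 3 of all 33 gastric genes were lower, and Bhlha15 and Rab26 were among them. Their log2 differences were then -0.70 and -1.30 (adjusted p = 0.00717 and 1.92e-05, limma). The other calls of lower genes in the chief cell list depend on the scaling. Bhlha15 fell from 5673 ± 462 to 1382 ± 840 (normalized counts, SD over n = 3 mice), and its log2 difference was -2.19 (SE 0.33, adjusted p = 0.00146, limma). Rab26, a granule-associated small GTPase gene, fell from 596 ± 47.9 to 97.9 ± 58.9 (log2 difference -2.76, adjusted p = 0.00104, limma). These members are shared with acinar cells, as is Pdia2, a pancreatic protein disulfide isomerase gene, which fell by 1.08 on the log2 scale (adjusted p = 0.0127, limma) but had a log2 difference of 0.42 with the same total in every library. Without control 1 or control 2 the adjusted p of Pdia2 was 0.0598 or 0.0590 (limma).

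Xbp1, which encodes a transcription factor of the secretory stress response used by both cell types, had 4508, 4696 and 5547 normalized counts in controls and 5166, 5186 and 4041 in Ptf1a cKO. Its log2 difference was -0.04 (adjusted p = 0.870, limma) and 1.46 with the same total in every library. Mia rose from 64.0 ± 14.0 to 263 ± 83.9 (normalized counts, SD over n = 3 mice; log2 difference 1.96, adjusted p = 4.54e-04, limma). Lipf, Cym, Lgr5 and Aqp5, further genes of chief cells or gland base cells, were not analysed here.

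Parietal cells secrete acid in the same glands. Of 7 parietal cell genes with values, 6 were higher in Ptf1a cKO, beside 17.1% of all genes. However, 4 of these 6 were kept only by their Ptf1a cKO values. The largest change was that of Kcnj15, a potassium channel gene, with 9.35, 13.8 and 3.24 normalized counts in controls and 662, 453 and 1005 in Ptf1a cKO 1, 2 and 3 (log2 difference 5.89, adjusted p = 2.18e-05, limma). Slc9a4, a sodium-hydrogen exchanger gene, was listed at 0 in the 3 controls and at 32.0, 24.2 and 58.2 in Ptf1a cKO (adjusted p = 0.00342, limma). Kcne2, a potassium channel subunit gene, was at or under 2.33 in controls and at 55.4, 13.6 and 40.2 in Ptf1a cKO (adjusted p = 0.00978, and 0.0762 without Ptf1a cKO 1, limma). Car2, a carbonic anhydrase gene also made in ducts, had a log2 difference of 2.09 (adjusted p = 0.0271, limma), a call that was lost in 4 of the 6 fits with 1 library left out, those without control 2, control 3, Ptf1a cKO 1 or Ptf1a cKO 3 (adjusted p between 0.0723 and 0.0898, limma). Atp4a, the proton pump subunit that defines the parietal cell, and Atp4b were not analysed here.

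Mucous cell genes were divided. All 3 surface mucous cell genes with values were higher, beside 17.1% of all genes. Of these, Muc5ac and Fut2 were kept in the table only by their Ptf1a cKO values and could appear only as higher. Muc5ac, the main mucin of the gastric surface, went from 1.33, 7.89 and 1.36 to 115, 224 and 183 normalized counts (log2 difference 4.76, adjusted p = 9.09e-05, limma). Fut2, a fucosyltransferase gene, was at or under 2.28 in controls and at 58.2, 23.9 and 130 in Ptf1a cKO (adjusted p = 0.00203, limma), and Muc1 rose by 0.80 on the log2 scale (adjusted p = 0.00187, limma). Gkn1, Gkn2 and Tff1, which with Muc5ac mark surface mucous cells, were not analysed here.

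Of 5 mucous neck cell genes, 2 were higher, 1 lower and 2 not called, where 17.1% of all genes were higher and 16.8% lower. The defining neck cell genes gave no call: Muc6 had 11.0, 1.46 and 99.2 normalized counts in Ptf1a cKO against 4.84 to 13.8 in controls (adjusted p = 0.604, limma), and Tff2, abundant in both genotypes, had 22877, 21635 and 19493 in controls and 23054, 19954 and 13418 in Ptf1a cKO (log2 difference -0.21, adjusted p = 0.514, limma, and 1.28 with the same total). Muc6 was kept in the table only by its Ptf1a cKO values. Pigr, the immunoglobulin transporter gene, rose from 130 ± 20.3 to 892 ± 213 (SD, n = 3 each; log2 difference 2.72, adjusted p = 4.31e-05, limma). Agr2, a protein disulfide isomerase gene of mucous cells that was likewise kept only by its Ptf1a cKO values, rose by 2.09 on the log2 scale (adjusted p = 0.0210, limma), but not past the threshold without control 1 (0.0708) or control 2 (0.0595). Galnt6, which encodes an enzyme starting mucin-type O-glycans, fell from 1066 ± 144 to 151 ± 92.2 (log2 difference -2.94, adjusted p = 3.66e-04, limma). The mean of Gkn3 was 67.5 times the control mean in the same libraries.

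Of 2 gastric endocrine genes none was called, and of 4 gastric factors and surface genes none was higher and 1 lower. Over all genes 17.1% were higher and 16.8% lower. Chga and Sst, which pancreatic islets also express, gave no call (adjusted p = 0.896 and 0.942, limma), although Sst did without Ptf1a cKO 2 (log2 difference 1.03, adjusted p = 0.0401, limma). Gata4 and Gata6 had log2 differences of -0.14 and 0.13 (adjusted p = 0.373 and 0.405, limma), that of Gata4 being 1.35 with the same total. Spdef, a factor of mucous and secretory cells, fell by 0.48 (adjusted p = 0.0193, limma), but had a log2 difference of 1.00 with the same total in every library, and its adjusted p was 0.0513 without control 3 and 0.0667 without Ptf1a cKO 1 (limma). Anxa10, an annexin of gastric epithelium, was at 6.34, 12.3 and 93.6 normalized counts in Ptf1a cKO and at or under 1.13 in controls (adjusted p = 0.0637, limma). This gene was kept in the table only by its Ptf1a cKO values. It passed without Ptf1a cKO 1 (0.0453) or Ptf1a cKO 2 (0.0488). Sox2 and Cldn18 were not analysed here.

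**Figure D4:**
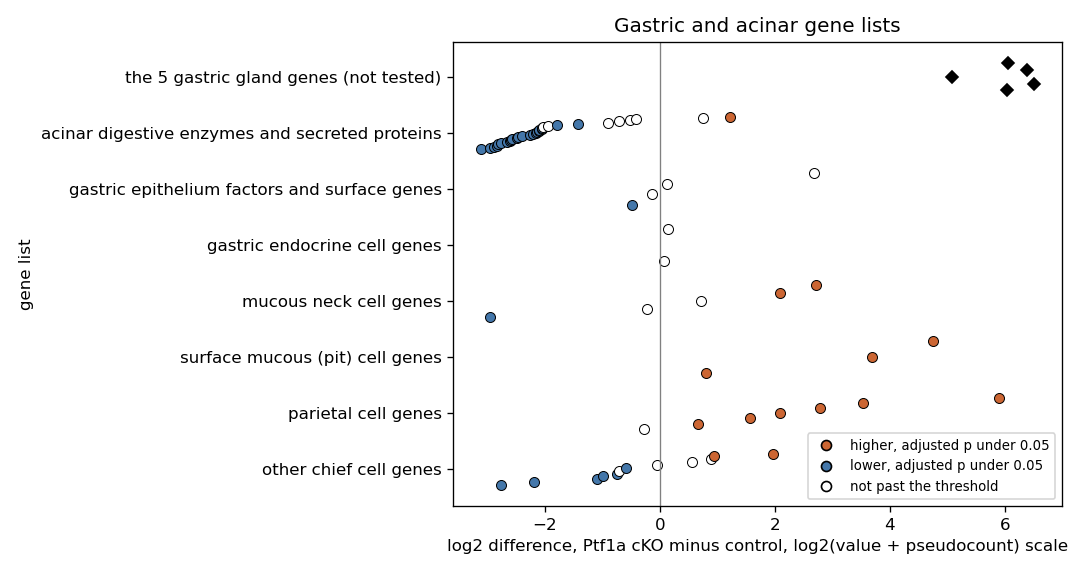
Log2 difference (Ptf1a cKO minus control, log2(value + pseudocount) scale) of each gene in 6 gastric lists and the acinar list, with fill color for the limma call, and of the 5 gastric gland genes as black diamonds. The diamonds lie between 5.08 and 6.51, and the only listed gene in that range is the parietal cell gene Kcnj15 at 5.89. With the same total in every library all points move up, and 29 of the 33 gastric genes are called higher.

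Genes of acinar digestive enzymes and secreted proteins, which include pancreatic counterparts of the pepsinogens, mostly moved in the opposite direction. Of 31 listed genes, 23 were lower and 1 higher in Ptf1a cKO, beside 16.8% and 17.1% of all genes. The higher gene was Pla2g1b (log2 difference 1.22, adjusted p = 0.0156, limma). With 1 library left out, between 0 and 1 of the listed genes was higher. The median log2 difference of the 31 genes was -2.15 against 0.04 over all genes. The lowest were Cela2a (-3.11), Cel (-2.95), Pnliprp1 (-2.88) and Gp2 (-2.82), with adjusted p-values of 0.00896, 0.00663, 0.00371 and 6.01e-04 (limma).

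Relatives of the 5 genes were looked at family by family. Of the aspartic proteases related to the pepsinogens, 3 had values. None of them was higher and 2 were lower, beside 17.1% and 16.8% of all genes. Ctsd, the lysosomal cathepsin D gene, and Bace1 fell by 0.37 and 0.35 on the log2 scale (adjusted p = 0.0347 and 0.0392, limma), changes that became 1.13 and 1.12 with the same total. Both calls were fragile, since that of Ctsd was lost without control 1, 2 or 3 or Ptf1a cKO 1 (0.0678 to 0.113) and that of Bace1 in each fit without 1 library except that without control 3 (0.0501 to 0.136). Ctse, a gastric cathepsin gene, was not analysed here.

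Among chitinase relatives, Chi3l4 had 24.4, 19.6 and 75.4 normalized counts in Ptf1a cKO and at most 3.36 in controls (log2 difference 3.03, adjusted p = 0.00881, limma), and was kept in the table only by its Ptf1a cKO values. Chid1, a chitinase-domain gene, had a log2 difference of 0.43 (adjusted p = 0.0337, limma) that did not pass without control 2, control 3, Ptf1a cKO 1 or Ptf1a cKO 3 (0.0748 to 0.118).

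Gastrokines share the BRICHOS domain with the ITM2 proteins, and all 3 of these genes were higher, beside 17.1% of all genes. Itm2b rose from 1695 ± 65.0 to 4533 ± 710 (normalized counts, SD over n = 3 mice; log2 difference 1.41, adjusted p = 2.45e-04, limma), Itm2a by 1.26 (adjusted p = 0.00152) and Itm2c by 0.57 (adjusted p = 0.0133, limma). The call of Itm2c was lost without control 1 (0.0591) or control 2 (0.0573).

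Of 12 genes of cobalamin transport and use, which act downstream of or beside intrinsic factor, 1 was higher, 2 lower and 9 not called. Neither count exceeds the share over all genes, of which 17.1% were higher and 16.8% lower. Tcn2, encoding the plasma carrier transcobalamin, rose from 394 ± 42.9 to 690 ± 156 (SD, n = 3 each; log2 difference 0.79, adjusted p = 0.00701, limma). Abcc1, a cellular exporter, and Mut, the cobalamin-dependent mutase, fell by 0.70 and 0.42 (adjusted p = 0.00282 and 0.0240, limma), with log2 differences of 0.77 and 1.07 when every library was set to the same total. The call of Mut was lost without control 1, control 2, Ptf1a cKO 2 or Ptf1a cKO 3 (0.0531 to 0.0939). Cubn, the receptor for the intrinsic factor complex in the ileum and kidney, was not analysed here.

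Genes with the profile most like that of the set were found by the root mean square distance between log2 values, centered on each gene's mean over the 6 libraries, and the mean profile of the 5 genes. Of 10240 other genes the 5 nearest were Gcnt3 (distance 0.24), Kcnj15 (0.28), Ifi27l2b (0.60), Spp1 (0.64) and Fgl1 (0.65). The 5 genes themselves lay between 0.20 (Gkn3) and 0.90 (Pgc) from their own mean. Gcnt3, which encodes a mucin-type glycosyltransferase, had 5.90, 9.22 and 8.15 normalized counts in controls and 901, 408 and 754 in Ptf1a cKO. Spp1, the osteopontin gene, had 1677, 1959 and 1327 in controls and 87512, 20971 and 105340 in Ptf1a cKO 1, 2 and 3. Ptf1a cKO 2 was the lowest library of its group for all 5 nearest genes, as it was for Pga5, Chia and Gkn3. These genes were picked by their values in the same 6 libraries. A gap between genotypes and a low Ptf1a cKO 2 are therefore built into the choice. Gcnt3, Kcnj15, Ifi27l2b and Fgl1 lay under 27.6 normalized counts in every control and were kept in the table only by their Ptf1a cKO values.

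**Figure D5:**
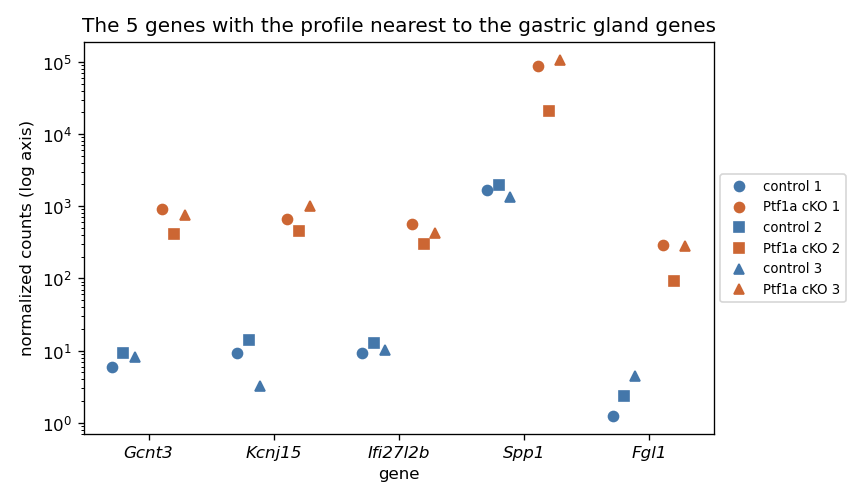
Normalized counts (log axis) of the 5 genes whose profile over the 6 libraries lay nearest to that of the gastric gland genes, with 1 symbol per library. Every Ptf1a cKO value lies above every control value of the same gene, and Ptf1a cKO 2 is the lowest of its group in all 5. Both features are built into the choice of these genes, which used the same libraries.

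Because the stomach lies next to the pancreas, genes of neighboring tissues were listed as well. The 9 squamous forestomach genes listed were not analysed here. Of 15 intestinal genes 3 had values, and 2 of these were higher, beside 17.1% of all genes. The higher ones were Reg3b and Reg3g (log2 differences 2.87 and 3.41, adjusted p = 3.52e-04 and 2.63e-05, limma), which injured acinar cells also express. Smooth muscle genes of the gastric wall, also made by stellate cells and vessels, summed to 252 to 288 normalized counts in controls and 553, 373 and 649 in Ptf1a cKO 1, 2 and 3. Of these genes 4 of 6 were higher, beside 17.1% of all genes. The largest were Synm and Acta2 (log2 differences 1.20 and 1.15, adjusted p = 0.0135 and 0.0292, limma), followed by Myh11 (0.85, adjusted p = 0.0135) and Des (0.73, adjusted p = 0.0326). The calls of Acta2 and Des were lost in 3 and 4 of the 6 fits without 1 library, in both cases without control 1, Ptf1a cKO 1 or Ptf1a cKO 3 and for Des also without control 2 (adjusted p between 0.0663 and 0.109, limma). Their part in the rise of the gastric genes was not tested.

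Ptf1a cKO 3, in which Pgc and Chia were highest and Gif lowest, also held transcripts of lymphoid and fat tissue. B cell genes (3 of 8 with values) summed to 0, 15.5 and 336 normalized counts in Ptf1a cKO 1, 2 and 3 and to 7.56 to 31.5 in controls, and none of the 3 passed the threshold (adjusted p between 0.594 and 0.799, limma). Mesenteric fat genes (6 of 8) summed to 334, 552 and 1403 in Ptf1a cKO 1, 2 and 3 and to 190 to 512 in controls. Of the 6, 1 was higher, Cfd (log2 difference 3.24, adjusted p = 0.00431, limma), which was kept in the table only by its Ptf1a cKO values. Over all genes 17.1% were higher and 16.8% lower, so the count of fat genes does not exceed that share. Without Ptf1a cKO 3 the log2 differences of Gif, Pga5, Pgc, Chia and Gkn3 were 6.47, 6.28, 4.46, 5.92 and 6.04. Whether lymphoid or fat tissue had a part in the rise was not tested.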

How the data were processed

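RNA was sequenced by the authors from whole pancreata of 3 control and 3 Ptf1a cKO mice. Single-end reads were aligned to mm9 with TopHat2 2.0.4 and Bowtie 0.12.7.0, and the submitters' processing notes also name SAMtools 0.1.18.0 and HTSeq 0.6.0. The authors' differential expression used edgeR with TMM. The deposited table holds normalized counts, a signal scaled across the 6 libraries. Annotation and filter on low values are not given in the sources used here. Values carry decimals without a common step, so whole reads were not recovered and models of read counts were not used. The 3 entries that name no gene (75.7% to 82.6% of a library) were left out. In 17 genes the symbol had become a date.

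Values were divided by 13.6 (1 factor for all libraries), and log2(value + 0.25) was fitted with limma 3.58.1 in R 4.3.3 (lmFit, eBayes with trend, group only). The minimum mean of 0.25 removed 0 genes. Benjamini-Hochberg adjustment covered all genes. The fit was tested on simulated data. Exon lengths and positions came from GENCODE vM21 (GRCm38) for 10165 genes. The 5 genes and the lists were chosen with earlier results of these data known. Named were, from each list, the up to 4 called genes with the largest change and a fixed set of defining genes, plus the 5 genes of nearest profile. Cckbr, Chga, Sst, Gata4, Gata6, Anxa10, Cpa1, Pla2g1b and the B cell genes were added after their values were seen. Alternatives were other pseudocounts, filters, scalings and variance models, a replicate block, sex as a covariate, and leaving out each library. The labels do not say whether libraries were prepared together.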

Additional observations from a re-analysis of the deposited data

How the results depend on the processing

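The log2 differences of Gif, Pga5, Pgc, Chia and Gkn3 kept their direction under every alternative run. With the same total in every library they were 7.53, 8.01, 6.56, 7.87 and 7.55, close to 1.5 above the values reported, as this scaling lifts the median gene by 1.49. Under the other 11 settings that kept all libraries they stayed within 5.97 to 6.08, 6.45 to 6.55, 4.98 to 5.13, 6.31 to 6.42 and 6.00 to 6.10. With single libraries left out they ran from 5.81 to 6.47, 6.07 to 7.18, 4.46 to 5.74, 5.92 to 7.06 and 5.79 to 6.34. The count of genes past the threshold (3475) was 9719 with the same total and between 2363 and 3603 with 1 library left out.

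Of the other gastric genes, 13 higher and 8 lower became 29 higher and 3 lower with the same total, and 7 higher with a mean of at least 5 required, which tests fewer genes and turned their median log2 difference to -0.089. Leaving out 1 library gave 11 to 15 higher and 7 to 8 lower, and for the acinar enzymes 20 to 25 lower. With the same total, log2 differences turned to 1.46 for Xbp1, 0.42 for Pdia2, 1.09 for Cckbr, 1.28 for Tff2, 1.00 for Spdef, 1.35 for Gata4, 1.13 for Ctsd, 1.12 for Bace1, 0.77 for Abcc1 and 1.07 for Mut, all below the shift of the median gene. Of 37 called genes among the 50 named, 25 kept the call in every fit without 1 library and 12 lost it in at least 1.

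The replicate number as a block gave 3525 genes past the threshold, and of the calls on named genes it ended those of Ctsd and Bace1 (adjusted p = 0.0521 and 0.0513, limma). Other settings also ended calls: without the variance trend those of Acta2, Chid1 and Bace1 (0.0526, 0.0573 and 0.0580), with the robust fit that of Acta2 (0.0542), with sex as a covariate that of Bace1 (0.0515), and with the same 75th percentile those of Ctsd and Bace1 (0.0549 and 0.0559, limma). Without the trend Anxa10 gained one (0.0345). Deviations of same-numbered libraries correlated at 0.039, 0.134 and 0.144, and those of other library pairs between -0.202 and 0.083. Ptf1a cKO 2 and 3 correlated best with the control of their own number, but Ptf1a cKO 1 with control 2 (0.083). With this mixed result the numbers were not taken as a pairing. The paper gives read totals per library, but the reads behind each value are unknown, so no limit from counting could be set.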
